A study of Capra hircus with 9 samples.

Results

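The 7 genes described here encode the cotransporter, pump subunit, exchanger and channels with which salivary acinar cells secrete fluid: SLC12A2, ATP1B1, SLC4A2, KCNN4, KCNMA1, ANO1 and AQP5. They were taken by gene symbol, and all transcripts assigned to a symbol were summed, which gave 7 of the 21665 genes in the data set. Transcriptomes of the submandibular gland were measured by RNA sequencing in 9 healthy female Lubo goats, with 3 goats at 1 month of age (group A), 3 at 12 months (group B) and 3 at 24 months (group C). Every goat was fasted and was given xylazine hydrochloride, an anaesthetic, before slaughter, a state that all 3 ages share. Each library held a piece of whole gland from 1 animal, with its acinar, ductal, myoepithelial, vascular and immune cells mixed, so fewer acinar cells and less RNA per acinar cell cannot be told apart.

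Salivary acini make primary saliva by moving chloride across the cell. On the basolateral side, the sodium-potassium-chloride cotransporter SLC12A2 (also called NKCC1) loads the cell with chloride, using the sodium gradient set by the Na/K-ATPase, and the anion exchanger SLC4A2 (also called AE2) brings in more chloride in exchange for bicarbonate. When a secretory signal raises calcium in the cell, the chloride channel ANO1 (also called TMEM16A) opens on the apical side, and the calcium-activated potassium channels KCNN4 and KCNMA1 let potassium out and keep the cell electrically negative. Sodium then follows between the cells and water follows through the water channel AQP5 and between the cells.

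The summed expected counts were between 1.15e+07 and 1.76e+07 in the 1-month libraries, between 1.82e+07 and 2.11e+07 in the 12-month libraries and between 2.2e+07 and 2.49e+07 in the 24-month libraries. Values are CPM (counts relative to library size), scaled by the trimmed mean of M values (TMM), a level relative to the rest of the same library. The file held no transcript lengths, so levels are compared between libraries for each gene and not between genes. The library of 1-month replicate 2 stood apart from the rest. In it the summed level of 7 acinar markers was 32.6 CPM, against 13228 CPM in replicate 1 and 6810 CPM in replicate 3 of the same age. Most of the sums of replicates 1 and 3 was the saliva protein gene ZG16B, with 12929 and 6588 CPM against 9.0 CPM. The transcription factor gene BHLHA15 had 0.523 CPM against 101 and 85.1 CPM. Smaller differences were seen for DNASE1 (12.5 against 15.8 and 14.8 CPM) and MUC5B (0.21 against 0.665 and 0.415 CPM). In replicate 2 the sum over 8 general epithelial markers, 626 CPM, lay between those of the other 1-month libraries (587 and 837 CPM). Most of it was KRT8 (304 CPM against 235 and 157 CPM in replicates 1 and 3) and CDH1 (215 against 219 and 158 CPM). KRT18 had 68.1 against 91 and 51.7 CPM. The rest of that list was lowest in replicate 2. EPCAM had 6.87 CPM against 130 and 94.3 CPM, and ESRP1 had 8.75 against 75.8 and 58.8 CPM. GRHL2 had 3.73 against 33.8 and 30 CPM, ELF3 3.42 against 24.3 and 17 CPM, and ESRP2 15.6 against 27.9 and 19.1 CPM. The sum over 9 duct markers was 163 CPM against 446 and 337 CPM. Of it KRT19 made up 122 CPM, against 88.4 and 87 CPM in replicates 1 and 3. Every other duct marker was lower in replicate 2, such as SCNN1A with 2.2 CPM against 95.7 and 61.6 CPM. The sum over 12 thymocyte and T cell markers was 11633 CPM against 3387 and 1668 CPM. The thymocyte and T cell sum was between 10.8 and 27.8 CPM in the 6 older libraries, so these markers were high in all 3 libraries from 1-month goats. The part of this difference in cell content in the results below was not tested, and for the 7 genes each comparison with 1-month goats is given with and without 1-month replicate 2.

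Among the basolateral genes, SLC12A2, the chloride-loading cotransporter, had 959, 43.9 and 625 CPM in 1-month replicates 1, 2 and 3. It had 2532, 3087 and 3540 CPM in the 12-month libraries and 2037, 1337 and 1392 CPM in the 24-month libraries. The 3 ages did not overlap: the highest level was at 12 months (3053 ± 505 CPM, SD, n = 3), the next at 24 months (1589 ± 389 CPM) and the lowest at 1 month (543 ± 463 CPM).

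ATP1B1, the beta subunit that the Na/K-ATPase needs to reach the plasma membrane, had 534, 95.8 and 337 CPM in the 1-month libraries. Its levels were 1400, 1340 and 1803 CPM at 12 months and 1376, 1262 and 1089 CPM at 24 months. The older ages overlapped each other (1515 ± 252 and 1243 ± 144 CPM) and both lay above every 1-month library (322 ± 219 CPM).

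SLC4A2, the chloride-bicarbonate exchanger, followed another pattern, with 19.1, 43.3 and 18.7 CPM at 1 month. It had 28.4, 24.5 and 27.6 CPM at 12 months and 18.7, 40.9 and 54.4 CPM at 24 months. Here 1-month replicate 2 was the highest library of its age and not the lowest, and the 3 ages overlapped (27.0 ± 14.1, 26.8 ± 2.09 and 38.0 ± 18.0 CPM). A second locus, LOC102186459, is described in the file as a partial anion exchange protein 2 and had nearly the same levels in every library. It had 20.9, 42.5 and 18.3 CPM at 1 month, 28.2, 23.0 and 26.4 CPM at 12 months and 22.7, 39.0 and 68.0 CPM at 24 months. Reads may have been divided between the 2 loci, so the level of SLC4A2 is uncertain.

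Among the potassium channels, KCNN4, the intermediate-conductance channel, had 63.5, 0.279 and 46.0 CPM in the 1-month libraries. It had 122, 97.3 and 143 CPM at 12 months and 85.6, 164 and 169 CPM at 24 months. The 12-month and 24-month ranges overlapped (121 ± 22.9 and 140 ± 46.8 CPM), and the lowest older library stood above the highest 1-month library. In 1-month replicate 2 the whole gene was represented by an expected count of 5.39.

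KCNMA1, the pore-forming subunit of the large-conductance (BK) channel, had 42.4, 0.593 and 30.1 CPM at 1 month. It had 119, 182 and 171 CPM at 12 months and 149, 95.8 and 71.5 CPM at 24 months. The older ages overlapped (157 ± 33.7 and 105 ± 39.7 CPM), and the lowest of them lay above the highest 1-month library.

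On the apical side, ANO1, the calcium-activated chloride channel, had 42.2, 4.6 and 38.5 CPM in the 1-month libraries. Its levels were 161, 125 and 119 CPM at 12 months and 150, 133 and 190 CPM at 24 months. The older ages overlapped (135 ± 22.7 and 158 ± 29.1 CPM) and did not overlap the 1-month libraries.

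AQP5, the apical water channel, had 217, 0.488 and 128 CPM in the 1-month libraries, where replicate 2 held an expected count of 9.44. It had 587, 468 and 553 CPM at 12 months and 502, 683 and 1038 CPM at 24 months. The 12-month and 24-month libraries overlapped (536 ± 60.9 and 741 ± 273 CPM), and all of them lay above the 1-month libraries. Of the 7 genes, AQP5 differed most within the 1-month group, with a level in replicate 2 that was 443-fold below replicate 1 and 261-fold below replicate 3. The same ratios were 228 and 165 for KCNN4, 71.5 and 50.8 for KCNMA1 and 21.9 and 14.2 for SLC12A2. They were 9.17 and 8.37 for ANO1 and 5.57 and 3.52 for ATP1B1.

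**Figure D1:**
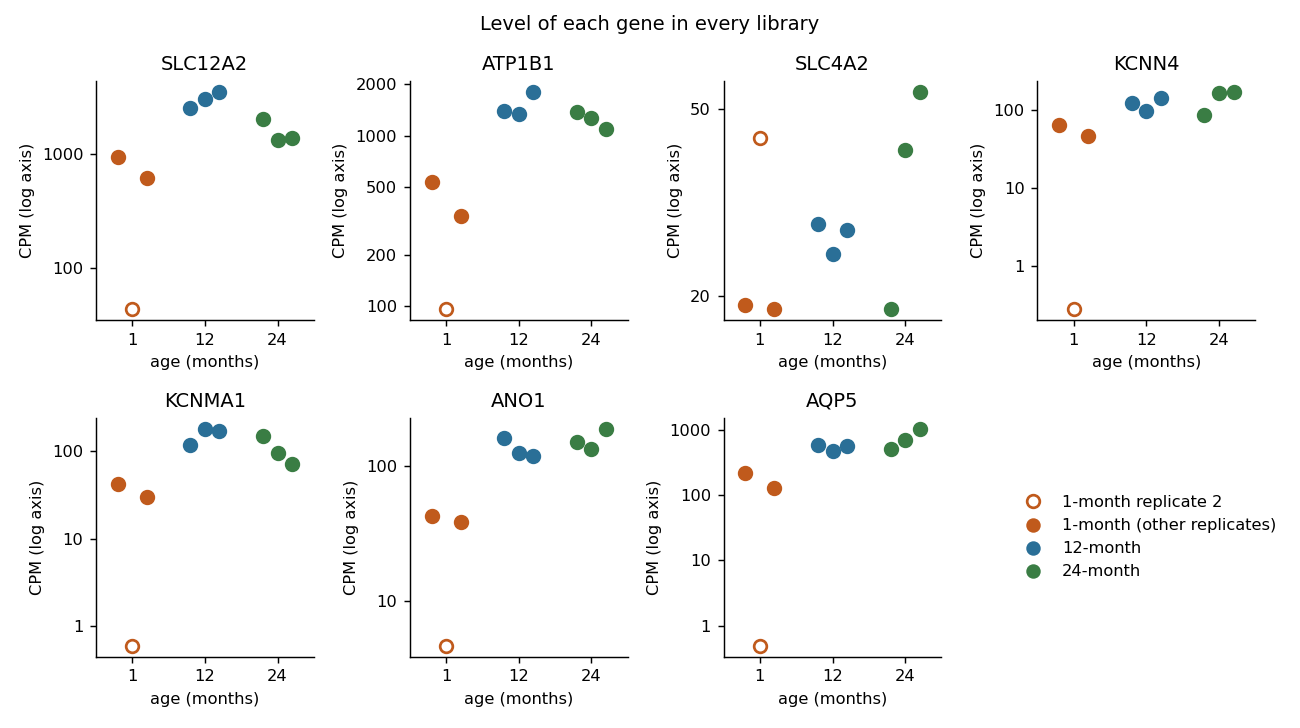
Level of each gene in CPM (log axis) in every library against age in months, with replicates 1 to 3 from left to right within an age. Open circles mark 1-month replicate 2, which is the lowest library for all genes but SLC4A2, and for these 6 genes every older library lies above every 1-month library.

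The comparison of 12-month with 1-month goats asks how the secretory genes changed from the young to the grown animal. With all 6 libraries, ATP1B1 rose 4.93-fold (log2 fold change 2.30 ± 0.618, SE, edgeR quasi-likelihood test, adjusted p = 0.045). It was the only one of the 7 genes called, and 18.3% of the 14884 genes tested were called in either direction and 6.49% as higher. ATP1B1 also passed the study's additional requirement of an absolute log2 fold change over 2, as did 11.7% of all genes. The log2 fold changes of the others were 2.57 for SLC12A2 (edgeR adjusted p = 0.102), 2.32 for ANO1 (0.0666), 2.77 for KCNMA1 (0.131), 2.30 for AQP5 (0.271), 1.80 for KCNN4 (0.33) and 0.01 for SLC4A2 (0.988). The standard errors of AQP5, KCNN4 and KCNMA1, which were nearly missing from 1-month replicate 2, were 1.44, 1.29 and 1.16. For 6 of the 7 genes every 12-month library was higher than every 1-month library, a separation shown by 27.0% of all genes tested.

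Without 1-month replicate 2, which left 2 libraries at that age, all 7 genes were called higher at 12 months in the same edgeR test, against 21.1% of the 15235 genes tested. ANO1 rose 3.33-fold (log2 fold change 1.74 ± 0.18, edgeR adjusted p = 0.00146). KCNMA1 rose 4.32-fold (2.11 ± 0.258, 0.00231), SLC12A2 3.84-fold (1.94 ± 0.275, 0.0035) and ATP1B1 3.46-fold (1.79 ± 0.268, 0.00414). AQP5 rose 3.1-fold (1.63 ± 0.261, 0.00505), KCNN4 2.2-fold (1.14 ± 0.225, 0.01) and SLC4A2 1.42-fold (0.50 ± 0.144, 0.0332). The removal lowered the fold change of 6 genes and raised that of SLC4A2. ATP1B1 was no longer called when any other library of the comparison was left out.

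Between 24-month and 1-month goats, ANO1 was the gene called, with a 6.08-fold rise (log2 fold change 2.61 ± 0.724, edgeR quasi-likelihood test, adjusted p = 0.0418). In this comparison 17.6% of the 14954 genes tested were called in either direction and 7.08% as higher. ANO1 also passed with an absolute log2 fold change over 2, as did 13.4% of all genes. ATP1B1 had a log2 fold change of 2.07 (edgeR adjusted p = 0.0571), AQP5 of 2.84 (0.189), KCNMA1 of 2.24 (0.178), KCNN4 of 2.08 (0.268), SLC12A2 of 1.68 (0.226) and SLC4A2 of 0.59 (0.484). The same 6 genes as at 12 months were higher in every 24-month library than in every 1-month library, against 20.3% of all genes tested, and both comparisons share the 1-month libraries.

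Without 1-month replicate 2, 5 genes were called higher at 24 months, against 13.8% of the 15369 genes tested. AQP5 rose 4.61-fold (log2 fold change 2.2 ± 0.45, edgeR adjusted p = 0.00881), ANO1 4.18-fold (2.06 ± 0.333, 0.00349) and KCNMA1 3.12-fold (1.64 ± 0.405, 0.0179). ATP1B1 rose 3.06-fold (1.61 ± 0.373, 0.014) and KCNN4 2.74-fold (1.45 ± 0.405, 0.0277). The 2 genes not called were SLC12A2, with a log2 fold change of 1.10 (95% interval 0.23 to 1.97, edgeR adjusted p = 0.0613), and SLC4A2, with 1.11 (0.08 to 2.15, 0.0995). When any other library of the comparison was left out instead, none of the 7 genes was called.

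**Figure D2:**
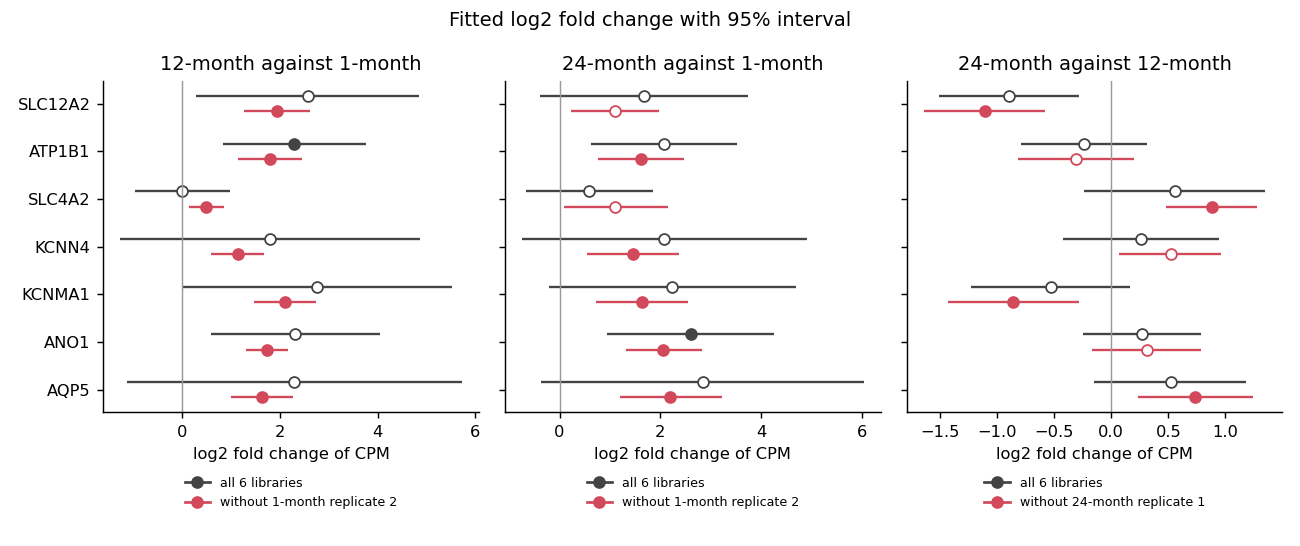
Fitted log2 fold change of CPM (x axis) of each gene with its 95% interval, in grey for all 6 libraries of a comparison and in red after 1 library was left out; filled points have an adjusted p under 0.05. The grey intervals against 1 month are wider than the red ones, and after scaling to 4 epithelial genes in place of TMM, which is not drawn, the fold change turns negative for SLC4A2 against 1 month at both older ages, for SLC12A2 at 24 against 1 months and for KCNN4 at 24 against 12 months.

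Between 24-month and 12-month goats none of the 7 genes was called by edgeR's quasi-likelihood test, nor by edgeR's exact test or the DESeq2 Wald test, and 0 of the 14289 genes tested were called by the quasi-likelihood test. At an unadjusted p under 0.05 there were 1560 genes (10.9%), among them SLC12A2 as the only one of the 7. SLC12A2 was 1.86 times lower at 24 months (log2 fold change -0.90 ± 0.274, 95% interval -1.51 to -0.28, edgeR adjusted p = 0.429), and its 24-month libraries all lay below its 12-month libraries, as did those of 7.71% of all genes tested. The 95% intervals of the log2 fold change were -0.15 to 1.18 for AQP5, -0.25 to 0.79 for ANO1, -0.42 to 0.94 for KCNN4, -1.23 to 0.16 for KCNMA1, -0.79 to 0.31 for ATP1B1 and -0.24 to 1.35 for SLC4A2. Differences inside these intervals could not be resolved with 3 goats an age.

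The calls between the older ages turned on 24-month replicate 1. Without it, 31.6% of the 14585 genes tested were called in either direction, and 4 of the 7 genes were among them. SLC12A2 fell 2.16-fold (log2 fold change -1.11 ± 0.23, edgeR adjusted p = 0.014) and KCNMA1 fell 1.81-fold (-0.86 ± 0.249, 0.0347). SLC4A2 rose 1.84-fold (0.88 ± 0.174, 0.0124) and AQP5 rose 1.66-fold (0.73 ± 0.219, 0.0376). In replicate 1 the sum over 8 B and plasma cell markers was 1832 CPM, against 817 and 1051 CPM in the other 24-month libraries. The 12-month sums were 2501 to 2864 CPM. By Pearson correlation of log2 CPM, 24-month replicate 1 was closer to the 12-month libraries (0.960, 0.971 and 0.963) than to 24-month replicates 2 and 3 (0.903 and 0.862). Replicates 2 and 3 had a correlation of 0.954 with each other. The part of these differences in the result was not tested.

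The genes were also read against the epithelial content of the same library. The mean log2 CPM of EPCAM, CDH1, KRT8 and KRT18 was subtracted from the log2 CPM of each gene. These encode an adhesion molecule, a cadherin and a pair of keratins of simple epithelia. In 1-month replicate 2 they did not move together, with EPCAM at 6.87 CPM and KRT8 at 304 CPM. Their mean or sum is therefore an uncertain measure of epithelial content in that library. Of the 21 comparisons of these log2 ratios none could pass, because 3 against 3 libraries give an exact permutation p of at least 0.1 (two-sided), and the lowest p adjusted over the 21 was 0.3. Outside 1-month replicate 2 the ratios ran from 0.28 to 1.21 for AQP5 and from -1.89 to -1.20 for ANO1. The spans of KCNN4 (-2.02 to -1.19) and ATP1B1 (1.28 to 2.26) were of like size. All AQP5 ratios at 24 months lay above those at 1 month. For AQP5 the log2 ratio was 0.46 and 0.28 in 1-month replicates 1 and 3, 0.66, 0.38 and 0.55 at 12 months and 0.53, 0.61 and 1.21 at 24 months, against -7.25 in 1-month replicate 2. For ANO1 it was -1.89 and -1.45 in 1-month replicates 1 and 3, -1.20, -1.52 and -1.67 at 12 months and -1.20, -1.76 and -1.24 at 24 months, against -4.01.

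SLC12A2 was higher relative to the epithelial genes at 12 months than at either other age. Its log2 ratio was 2.61 and 2.57 in 1-month replicates 1 and 3 (and -0.76 in replicate 2), 2.77, 3.10 and 3.23 at 12 months and 2.56, 1.58 and 1.63 at 24 months. The 24-month ratios lay below the 12-month ratios by 1.11 on average on the log2 scale, without overlap (exact permutation p = 0.1, adjusted p = 0.3). KCNMA1 was ordered alike between the older ages, with -1.64, -0.98 and -1.14 at 12 months and -1.22, -2.23 and -2.65 at 24 months, but with overlap (p = 0.2, exact permutation test). SLC4A2 was lower relative to the epithelial genes in all older libraries (-4.21 to -3.04) than in 1-month replicates 2 and 3 (-0.78 and -2.49), and the lowest 1-month ratio, -3.04 in replicate 1, differed from the highest older ratio by less than the rounding.

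Without 1-month replicate 2, the difference in mean log2 ratio between 12 and 1 months was 0.16 for AQP5, 0.21 for ANO1, 0.30 for ATP1B1, 0.44 for SLC12A2, 0.59 for KCNMA1, -0.38 for KCNN4 and -1.02 for SLC4A2. On the CPM scale the log2 fold changes of AQP5 and ANO1 between the same libraries were 1.63 and 1.74, so most of their difference in CPM was shared by the epithelial genes. Between 24 and 1 months, also without that library, the differences were 0.41 for AQP5, 0.27 for ANO1, -0.14 for ATP1B1, -0.67 for SLC12A2, -0.19 for KCNMA1, -0.38 for KCNN4 and -0.80 for SLC4A2.

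**Figure D3:**
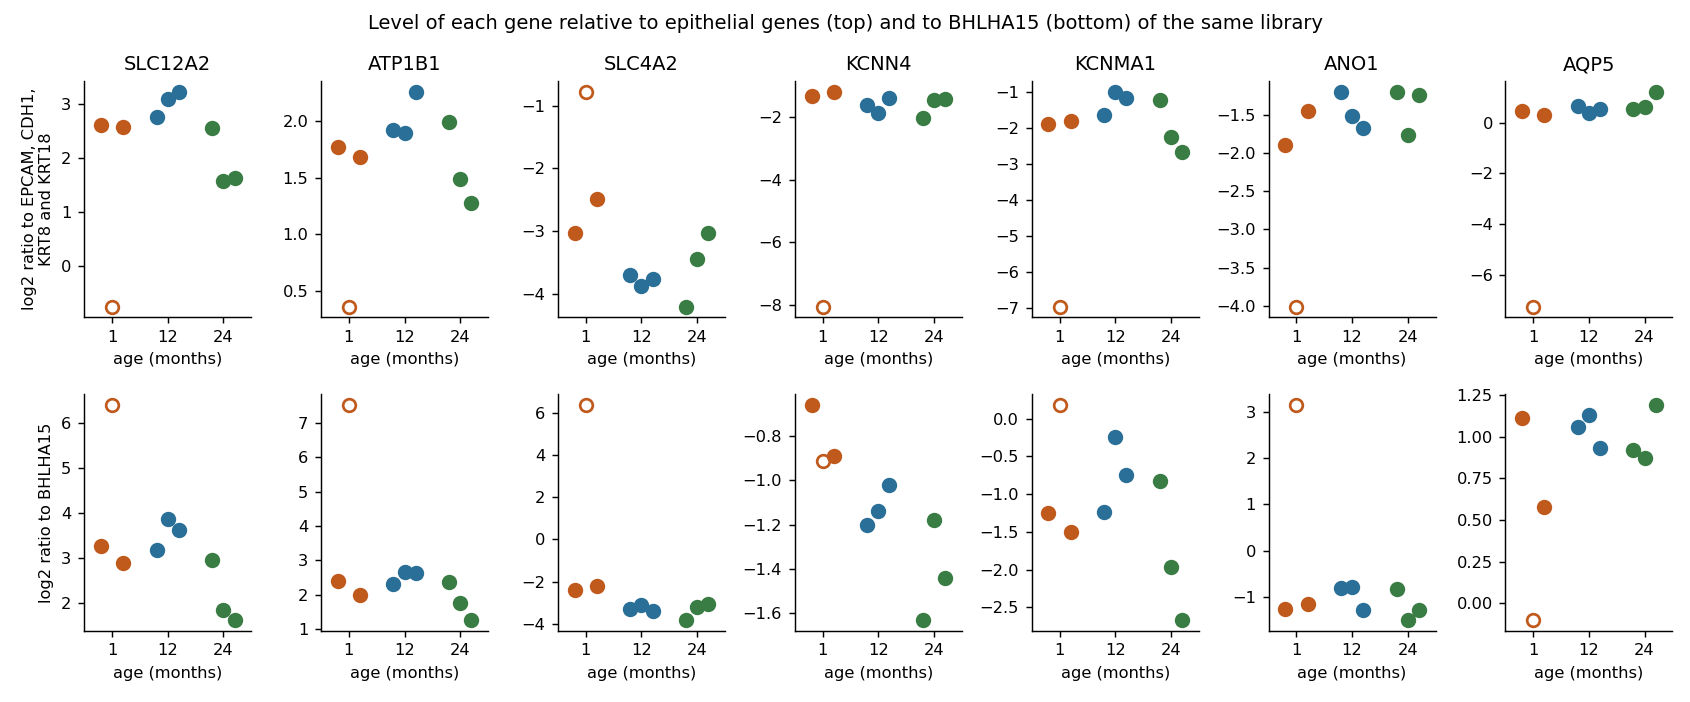
Log2 ratio of each gene to the mean of EPCAM, CDH1, KRT8 and KRT18 (top) and to the acinar transcription factor gene BHLHA15 (bottom) in the same library, against age in months; colours and open circles are as in the plot of levels. Outside 1-month replicate 2 the AQP5 ratios span 0.28 to 1.21 in the top row, and in the bottom row that replicate is the highest for SLC12A2, ATP1B1, SLC4A2, KCNMA1 and ANO1.

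Ratios between pairs of genes were chosen after their values were seen, so they only describe these libraries. The exact permutation p-values given for pairs do not account for that choice. AQP5 and BHLHA15, which encodes a transcription factor of secretory acinar cells, had a ratio of counts between 1.5 and 2.27 in 8 of the 9 libraries. It was 2.15, 0.934 and 1.5 in the 1-month libraries, 2.09, 2.19 and 1.91 at 12 months and 1.89, 1.83 and 2.27 at 24 months. In 1-month replicate 2, BHLHA15 held an expected count of 10.11 and AQP5 of 9.44, so that value has a wide counting error. BHLHA15 was also among the genes most like AQP5 over the same 9 libraries (Pearson correlation 0.998). The steady ratio restates that likeness and is no separate result.

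The ratio of SLC12A2 to AQP5 was 4.43, 89.9 and 4.9 at 1 month, 4.31, 6.59 and 6.4 at 12 months and 4.06, 1.96 and 1.34 at 24 months. All 24-month ratios lay below all others (exact permutation p = 0.1 against each age, adjusted p = 0.45 over 18 comparisons). In 24-month replicate 1 the ratio was near the lowest 12-month value, and in replicates 2 and 3 it was lower than in every other library. Relative to BHLHA15, SLC12A2 was 9.54, 84 and 7.34 at 1 month, 9.03, 14.4 and 12.2 at 12 months and 7.69, 3.58 and 3.05 at 24 months, without overlap between the older ages (exact permutation p = 0.1, adjusted p = 0.45). KCNMA1 relative to KCNN4 was 0.668, 2.13 and 0.655 at 1 month, 0.973, 1.87 and 1.2 at 12 months and 1.74, 0.583 and 0.424 at 24 months, with replicate 1 again the highest at 24 months.

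**Figure D4:**
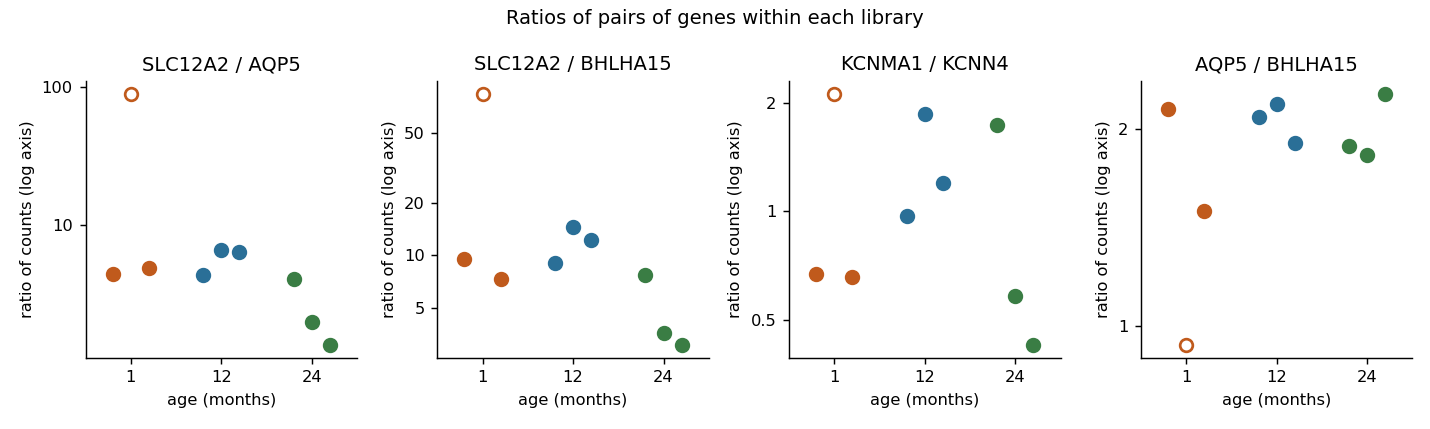
Ratio of counts of 4 pairs of genes (log axis) in every library against age in months; colours and open circles are as in the plot of levels. At 24 months replicate 1 is the leftmost point and has the highest ratio of SLC12A2 to AQP5 (4.06) and of KCNMA1 to KCNN4 (1.74).

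The transcripts behind each sum were few for most genes. ATP1B1 and SLC4A2 each had 1 transcript. XM_013965349.2 held 99.7% of the counts of SLC12A2 over all libraries, XM_005692619.3 held 95.1% of those of KCNN4 and XM_005680110.3 held 91.6% of those of AQP5. The remaining AQP5 counts fell on XM_018047812.1, with 5.88%, and XM_018047813.1, with 2.5%. In the 8 libraries other than 1-month replicate 2 the leading AQP5 transcript had between 90.5% and 92.8%, so the mixture hardly varied with age.

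ANO1 was carried mainly by transcripts assembled in the study and not by the reference. TCONS_00078019 held 90.2% of its counts over all libraries, with 92%, 61.2% and 65.3% in the 1-month libraries, 96.4%, 91.3% and 84.7% at 12 months and 93.4%, 91.8% and 88.9% at 24 months. The RefSeq transcript XM_018043147.1 had counts in 1-month replicates 1 and 2 only, with expected counts of 36.79 and 10.26. A sum over reference transcripts alone would thus have listed ANO1 at 0 in the other 7 libraries. KCNMA1, a gene known for extensive alternative splicing, had 32 transcripts listed and 11 with a count in any library. XM_018042412.1 led in 8 libraries with 58.7% to 77.9%, and in 1-month replicate 2 all of the expected count of 11.46 was given to XM_018042408.1. XM_018042409.1 held 22.2% in 1-month replicate 1 and 0% elsewhere, and XM_018042410.1 held 20.2% in 1-month replicate 3 and at most 0.283% elsewhere. The estimated shares of minor transcripts thus differed between goats of 1 age. Transcripts of 1 gene share reads, and how far the division of shared reads made these differences was not tested. Tested as transcripts by edgeR, no transcript of the 7 genes had an adjusted p under 0.05 in any comparison, and the lowest was 0.108, for ATP1B1 at 12 against 1 months. At an unadjusted p under 0.05 there were 5 of their transcripts at 12 against 1 months, 2 at 24 against 1 months and 2 at 24 against 12 months.

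The genes that work around these 7 were read from 9 lists of other transporters, channels, kinases, calcium signalling genes and tight junction genes, which together held 121 genes in the table. Between 12 and 1 months 22 of the 89 tested were called, 14 higher and 8 lower, which is 24.7% against 18.3% of all genes, where 6.49% were higher and 11.8% lower. Between 24 and 1 months 28 of the 94 tested were called, 21 higher and 7 lower, which is 29.8% against 17.6% of all genes, where 7.08% were higher and 10.6% lower. Without 1-month replicate 2 the counts were 36 higher and 15 lower of 92 tested at 12 months, against 21.1% higher and 22.1% lower over all genes, which is 43.3% in either direction. At 24 months they were 31 higher and 8 lower of 96, against 13.8% and 14.2%, or 27.9% in either direction. The split turned when libraries were scaled to the summed counts of the 4 epithelial genes in place of TMM (epithelial scaling). This differs from the log2 ratios above, which use the mean log2 CPM of these genes. The scaling moved the median log2 fold change of all genes to -1.51 and -1.75. With it 1 list gene was called higher and 37 lower at 12 months, against 0.490% and 60.4% of all genes. At 24 months 2 were higher and 36 lower, against 0.548% and 57.9%. Directions below are those of CPM in the test with all 6 libraries, and where a gene named below gained or lost its call without 1-month replicate 2, the value without it is given. Between 24 and 12 months 0 of the 93 list genes tested were called by edgeR's quasi-likelihood test, its exact test or the DESeq2 Wald test, with 18 at an unadjusted p under 0.05 in the quasi-likelihood test, and without 24-month replicate 1 there were 23 higher and 10 lower of 94, against 17.6% and 14.0% of all genes.

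Among other acid-base transporters, 1 of 10 tested rose and 1 fell at 12 months and 2 of 11 rose at 24 months, with medians of 0.80 and 0.81 on the log2 scale against -0.02 and -0.01 over all genes. SLC4A4, a sodium-bicarbonate cotransporter that is also a duct marker, had 41.5, 18.9 and 40.6 CPM at 1 month, 1010, 708 and 861 CPM at 12 months and 862, 647 and 379 CPM at 24 months. It rose 26.6-fold at 12 months (log2 fold change 4.73 ± 0.438, edgeR adjusted p = 0.00631) and 20.2-fold at 24 months (4.34 ± 0.557, 0.0042), more than any of the 7 genes. SLC9A4, a sodium-hydrogen exchanger, was called higher at 24 months (3.39, 0.0357) at levels of 1.31 to 3.85 CPM. SLC4A10, another bicarbonate transporter, was called lower at 12 months and had at most 0.82 expected counts in any 12-month library, which gives a level at least 6-fold lower against a floor of 3 counts a library.

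Of the other Na/K-ATPase subunits and FXYD proteins, which regulate the pump, 1 of 8 tested rose and 1 fell at 12 months and 2 of 9 rose at 24 months (medians 0.11 and 0.51). FXYD3 rose 8.24-fold at 12 months (adjusted p = 0.0151 in edgeR) and 12.1-fold at 24 months (0.0105). FXYD5 fell at 12 months by 2.26 on the log2 scale (0.0279), and its highest level, 45.5 CPM, was in 1-month replicate 2.

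Of the other aquaporins, 1 of 6 tested rose and 1 fell at 12 months and 2 of 7 rose and 1 fell at 24 months. AQP3, a water and glycerol channel of the basolateral membrane, fell by 1.98 on the log2 scale at 12 months (edgeR adjusted p = 0.0393) and by 2.26 at 24 months (0.0414), from 10.7, 37.5 and 19.0 CPM at 1 month to at most 6.71 CPM in the older libraries. AQP11, an intracellular aquaporin, rose at both ages (3.37 and 2.88, edgeR adjusted p = 0.0251 and 0.0476) at levels of 1.02 to 2.11 CPM in the older libraries, and at 24 months without 1-month replicate 2 it was not called (2.41, 0.0713). AQP6 lies next to AQP5 in the RefSeq gene order and was called higher at 24 months. It had at most 2.95 expected counts in the 1-month libraries, which gives a level at least 6.36-fold higher at 24 months, and it stayed at or under 1.72 CPM. AQP2, on the other side of AQP5, had at most 0.174 CPM in any library.

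Of the other anoctamins and apical anion channels 2 of 9 tested rose at 12 months and 2 of 10 at 24 months (medians 1.28 and 1.32), and none fell. They were ANO10 (log2 fold change 1.93 and 2.27, edgeR adjusted p = 0.0391 and 0.026) and the chloride channel CLCN2 (2.07 and 2.15, 0.0304 and 0.0477). ANO10 had 32.9, 7.92 and 25.8 CPM at 1 month and 69.7 to 118 CPM in the older libraries, with 1-month replicate 2 again the lowest. Without that library CLCN2 was not called at 24 months (log2 fold change 1.80, edgeR adjusted p = 0.0501), and the apical chloride channel CFTR was called higher at both ages (1.39 and 1.10, 0.00231 and 0.0382).

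Of the other cation-chloride cotransporters 5 were tested, with medians of -1.11 at 12 months and -0.54 at 24 months, against -0.02 and -0.01 over all genes. At 12 months 1 of them fell, and at 24 months 1 fell and 1 rose, the latter being SLC12A8 (log2 fold change 2.94, edgeR adjusted p = 0.0481). Of the 8 genes of the WNK and SPAK kinase cascade, which phosphorylates and switches on SLC12A2, WNK2 rose at both ages (2.28 and 2.91, edgeR adjusted p = 0.0315 and 0.019), and at 24 months WNK4 rose (3.29, 0.0143) and WNK3 fell by 2.28 (0.0349). At 12 months SLC12A8 was called higher (1.54, edgeR adjusted p = 0.00653) and WNK3 lower (-1.82, 0.0253) without 1-month replicate 2. STK39, which encodes SPAK, had 63.2, 3.66 and 37.3 CPM at 1 month and 84.3 to 166 CPM in the older libraries. It was not called with all 6 libraries, and without 1-month replicate 2 it was called higher at both ages (1.28 and 1.19, edgeR adjusted p = 0.0301 and 0.032).

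Of the other calcium-activated potassium channels and BK auxiliary subunits none of 7 tested was called at 12 months by edgeR's quasi-likelihood test and 2 of 8 were called at 24 months, both auxiliary gamma subunits of the BK channel. LRRC26, known to let BK channels open at resting calcium in secretory epithelia, had 4.03, 0.0347 and 2.3 CPM at 1 month, 9.11, 11.3 and 11.8 CPM at 12 months and 11.9, 35.1 and 36.0 CPM at 24 months. It rose at 24 months (log2 fold change 3.87 ± 1.08, edgeR adjusted p = 0.0425). LRRC38 was called as well (3.45, 0.031), with 0.717 to 5.34 CPM at 24 months. At 12 months 2 of 7 were called higher without 1-month replicate 2, LRRC26 (1.77, edgeR adjusted p = 0.00815) and the BK beta subunit gene KCNMB1 (0.80, 0.0402).

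The calcium signalling list, from muscarinic receptors to calcium pumps, held calls in both directions, 5 higher and 4 lower of 21 tested at 12 months and 3 higher and 4 lower at 24 months. CHRM1, the muscarinic receptor M1, had 2.55, 0.0698 and 1.52 CPM at 1 month, 13.9, 19.0 and 13.2 CPM at 12 months and 7.11, 26.8 and 37.2 CPM at 24 months, and rose at both ages (3.55 and 4.26, edgeR adjusted p = 0.0466 and 0.0324). GNA11, a G protein alpha subunit that couples such receptors to phospholipase C, rose by 1.18 and 1.69 (0.025 and 0.0196). Among those that fell were PLCB2, a phospholipase C of blood cells, with log2 fold changes of -3.35 and -2.49 (0.0116 and 0.0215), and ORAI2, a store-operated calcium channel, with -3.88 and -4.06 (0.0425 and 0.0272). The highest level of PLCB2, 35.7 CPM, was in 1-month replicate 2 and that of ORAI2, 108 CPM, in 1-month replicate 3. The thymocyte and T cell markers given above fell in the same comparisons, 12 of 12 at each age, and their part in these changes was not tested.

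The tight junction genes, which form the path between cells for sodium and water, had medians of 1.76 at 12 months and 1.93 at 24 months, with 3 and 5 of 15 tested called higher and none lower. CLDN7 rose at both ages (2.54 and 3.37, edgeR adjusted p = 0.0459 and 0.022), as did OCLN (2.04 and 1.93, 0.0498 and 0.0452). TJP3 rose at 24 months (2.45, 0.0232), and without 1-month replicate 2 it was called higher at 12 months too (1.27, 0.00181). Without 1-month replicate 2, 11 of 15 were called higher at 12 months and 10 of 15 at 24 months. With epithelial scaling the medians were 0.24 and 0.18, with 3 called lower and none higher at each age. The general epithelial markers had medians of 1.80 and 2.02 in CPM, and the acinar markers 2.39 and 2.70.

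**Figure D5:**
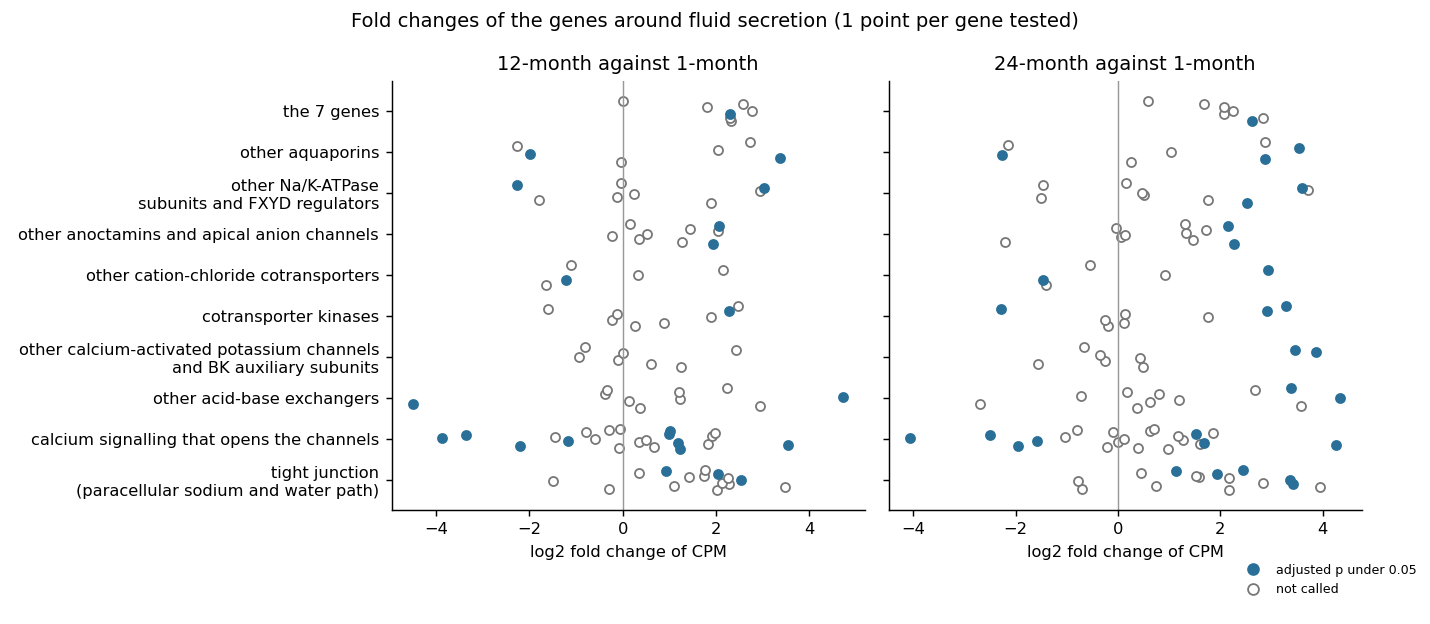
Log2 fold change of CPM (x axis) of each gene tested in 9 lists of fluid secretion genes and, in the top row, of the 7 genes, for 12 against 1 months (left) and 24 against 1 months (right); filled points have an adjusted p under 0.05. In CPM 14 called list genes are higher and 8 lower on the left and 21 higher and 7 lower on the right, a split that scaling to 4 epithelial genes turns to 1 against 37 and 2 against 36.

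The genes most like each of the 7 were found by the correlation of log2(CPM + 1) over the 9 libraries among 9135 genes, a description that leans on 1-month replicate 2. AQP5 was most like SOX10 (r = 0.999), BHLHA15 (0.998) and TMPRSS2 (0.998), and KCNN4 was most like SOX10 (0.997), BHLHA15 (0.995) and B4GALNT2 (0.995). KCNMA1 was most like TC2N (0.998) and GNPTAB (0.997), and SLC12A2 was most like LIMCH1, PKP2 and CRYZ (all 0.993). ANO1 was most like CRACR2A (0.995), MPP2 (0.994) and SMIM1 (0.994), ATP1B1 like POGK, RHPN2 and CNN3 (all 0.997) and SLC4A2 like STK25 (0.981), NDUFA3 (0.98) and LRRC41 (0.977). Over the 8 libraries without 1-month replicate 2 the correlations with these genes were between 0.952 and 0.995.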

How the data were processed

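Ribosomal RNA was removed from total RNA of 9 submandibular glands, and strand-marked (dUTP) libraries were sequenced on an Illumina HiSeq instrument. Per the labels and the study's methods, the authors mapped reads to ribosomal RNA with Bowtie2 2.2.8 to remove it, aligned the rest with TopHat2 2.1.1, assembled transcripts with Cufflinks and estimated abundance with RSEM; the genome build and the strand setting were not given in the sources used here. The deposited table held the authors' expected counts for 52739 transcripts (42686 known and 10053 new), not normalized, of which 3.49% of the values above 0 were whole. Gene symbols came from the table, and 99.9% of the known transcripts carried a gene also found in a RefSeq gene table, from which gene order was taken. The estimates were summed over the transcripts of a symbol to 21665 genes and rounded.

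The main test was edgeR 4.0.16 (R 4.3.3), with filterByExpr, TMM, the quasi-likelihood fit on the 6 libraries of a pair of ages and Benjamini-Hochberg adjustment over all genes tested; calls required an adjusted p below 0.05. The study's rule also required an absolute log2 fold change over 2, which served as an alternative, and an FPKM above 1, which was not applied because lengths were not used here. CPM was scaled over all 9 libraries. Standard errors were derived from the F statistic. Log2 ratios were compared by exact permutation tests over libraries. Alternatives were other scalings, edgeR's exact test, DESeq2 1.42.0, no filter on low counts, 1 fit over all libraries, the replicate number as a block, tests of transcripts and leaving out each library. Epithelial scaling used the summed counts of EPCAM, CDH1, KRT8 and KRT18 in place of TMM. The sum of SLC4A2 with LOC102186459 and the use of BHLHA15 as reference were chosen after seeing the data. Scripts were tested on simulated data. A floor of 3 counts lay between 0.146 and 0.189 CPM (TMM-scaled) in a library and covers counting error only. The replicates were separate goats.

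The 7 genes and all gene lists were chosen with earlier results of these data known. From the lists, called genes were named where there were at most 4 in a list and comparison, and otherwise the 2 with the lowest adjusted p in each direction in either comparison with 1-month goats; STK39, AQP2, CFTR, KCNMB1 and the pairs of genes set in ratio were chosen after their values were seen. Likeness was the Pearson correlation of log2(CPM + 1) among genes with a mean of at least 10 CPM. No sequence or coordinate is given, since transcript sequences, lengths and a genome were not used here. Some of the genes that this rule selects are not reported here.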

Additional observations from a re-analysis of the deposited data

How the results depend on the processing

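Of the 7 genes the main test called 1 at 12 against 1 months, and this became 4 with the DESeq2 Wald test, 3 with edgeR's exact test, 2 with all 9 libraries in 1 fit, and 0 with upper-quartile scaling, with transcripts tested or with the replicate number as a block, and it ran from 0 to 7 when each library was left out. At 24 against 1 months the 1 call became 3, 2 and 2 in the first 3 of these fits and 0 with upper-quartile scaling, epithelial scaling or transcripts, and ran from 0 to 5 when each library was left out. Between 24 and 12 months it ran from 0 to 4. The list genes called at 12 against 1 months, 22 in the main test, numbered 38 with epithelial scaling, 38 with the DESeq2 Wald test, 36 with edgeR's exact test, 13 with an absolute log2 fold change over 2 also required, and 0 to 51 with each library left out. At 24 against 1 months, 28 in the main test became 1 to 39 with each library left out, and between 24 and 12 months the range was 0 to 33. In each comparison with 1-month goats the highest of these counts came without 1-month replicate 2, and at 24 against 12 months without 24-month replicate 1. The cause was not tested. The share of all genes called with the Wald test, the exact test and the fit over all libraries is not given here. The counts from these fits therefore cannot be read as a trait of the 7 genes or of the lists.

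The log2 fold change of SLC4A2 at 12 against 1 months was 0.01 and turned to -0.06 with DESeq2 size factors and with the Wald test, -0.03 with all 9 libraries in 1 fit, -0.02 with LOC102186459 added (chosen after seeing the data) and -1.44 with epithelial scaling (adjusted p = 0.0176 in edgeR), and ran from -0.23 to 0.50 with each library left out. With epithelial scaling SLC4A2, as lower, was the 1 gene called in that comparison, and ATP1B1 was not called (0.81, edgeR adjusted p = 0.271). With epithelial scaling the log2 fold changes at 24 against 1 months were -0.03 for SLC12A2 and -1.22 for SLC4A2, and that of KCNN4 at 24 against 12 months was -0.05, while the median over all genes shifted by -1.49, -1.74 and -0.25 in the 3 comparisons. By the mean log2 ratio to the same 4 genes, SLC12A2 was instead 0.45 higher at 24 against 1 months. With BHLHA15 as the reference (chosen after seeing the data) the mean log2 ratios against 1 month turned to -0.63 at 12 and -2.04 at 24 months for SLC12A2, -1.20 and -1.44 for ANO1 and -1.44 and -2.17 for ATP1B1, each with the ratio of 1-month replicate 2 far above the rest. They also turned to -0.30 and -0.60 for KCNN4, whose older ratios all lay below its 1-month ratios, and to -0.97 at 24 months for KCNMA1.

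The replicate numbers were not taken as pairs. The correlations of deviations between libraries of the same number were -0.15, -0.15 and -0.14 at 12 against 1 months, 0.46, 0.23 and -0.29 at 24 against 1 months and -0.12, -0.17 and 0.04 at 24 against 12 months. Between libraries of different numbers they ran from -0.03 to 0.17, from -0.45 to 0.39 and from -0.17 to 0.24. With 3 libraries an age these values cannot show whether the numbers pair the goats. With the replicate block 0 of the 7 genes were called at 12 against 1 months, 1 at 24 against 1 months and 0 at 24 against 12 months, and 2, 15 and 0 list genes. Outliers within an age were not tested, since groups of 3 are too small. In 1-month replicate 2 the expected counts of KCNN4, AQP5 and KCNMA1 were 5.39, 9.44 and 11.46. The summed expected count of that library, 1.76e+07, was the highest of its age. The part of depth in the results was not tested.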
